A study of Mus musculus with 12 samples.

Results

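The genes of the pyruvate dehydrogenase step were examined in NIH3T3 mouse fibroblasts, namely the 4 pyruvate dehydrogenase kinases (Pdk1, Pdk2, Pdk3 and Pdk4), the 2 pyruvate dehydrogenase phosphatases (Pdp1 and Pdp2), the 2 subunits of the E1 enzyme (Pdha1 and Pdhb) and the 2 subunits of the mitochondrial pyruvate carrier (Mpc1 and Mpc2). These 10 members were taken by gene name from a table of 54446 genes, and 10 of 10 passed the filter on low counts that left 14724 genes for testing. Wild type NIH3T3 cells were compared with ΔN-VEGF cells, in which the coding region of N-VEGF, the amino-terminal stretch of the long VEGF isoform, had been deleted with Cas9 while the classical VEGF start was kept. Cells of either line were held for 16 h in normoxia or in a hypoxia chamber with less than 0.2% oxygen, which gave 4 groups of 3 RNA-seq libraries. ΔN-VEGF cells were derived from picked clones whose reporter cassette replaced N-VEGF at both alleles. The paper describes a later removal of the cassettes with a retrovirus encoding VCre, after which non-fluorescent cells were sorted. The study describes its experiments in general as repeated, but whether these RNA-seq replicates were separate cultures, and which clone gave the RNA, is not given in the sources used here. The p-values thus measure the spread between these libraries, which may be technical. Effects of the deletion, of clone selection, of the transduction and of sorting cannot be told apart.

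Pyruvate made by glycolysis enters mitochondria through the carrier formed by Mpc1 and Mpc2 and is oxidised to acetyl-CoA by the pyruvate dehydrogenase complex. Kinases of the Pdk family phosphorylate the E1 alpha subunit, encoded by Pdha1, and thereby switch the complex off, whereas the Pdp phosphatases remove the phosphate and switch it on again. Pdk1 is a textbook target of the hypoxia-inducible factor HIF, Pdk4 is known for its induction in fasting, and Pdk2 is broadly expressed. Counts of mRNA measure neither the amount nor the phosphorylation of these proteins.

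Total counts ranged from 30519052 to 43056690 per library, with a median of 39309933. The wild type normoxia library numbered 2 stood apart: its log2 CPM values (counts scaled to library size with trimmed mean factors, TMM) correlated across genes with the other libraries of its group at r = 0.956 and 0.957, compared with 0.986 or more for every other pair of replicates. The ΔN-VEGF normoxia library numbered 2 deviated less far, at r = 0.986 with both others of its group, whereas the remaining pairs of replicates were at 0.994 to 0.996. Member results whose call or size changed most without either library are given both ways. The cells carried the fibroblast label in their RNA, since 9 of 9 fibroblast markers averaged at least 61.4 CPM, led by Fn1 at 10900 CPM. These markers were not level across groups: hypoxia raised 2 and lowered 3 of the 9 in wild type cells (Pdgfra -2.32 and Col3a1 -2.20 among them), or 2 and 6 without wild type normoxia library 2, and raised 5 and lowered 2 in the ΔN-VEGF line. Col3a1, a collagen gene, rose there (1.43), with a called interaction (3.63, edgeR adjusted p = 0.023). Their summed level was 17300 to 26300 CPM in wild type normoxia, 27400 to 29600 in wild type hypoxia, 20700 to 21900 in ΔN-VEGF normoxia and 41700 to 43800 in ΔN-VEGF hypoxia. Lists of other cell types were low: 4 epithelial markers summed to 0.355 to 2.42 CPM per library with Epcam at 0, 3 skeletal muscle markers to at most 0.0464 CPM with Myod1 at 0, and 2 adipocyte markers to at most 0.184 CPM. Of 3 immune markers, which summed to 2.84 to 6.68 CPM, Cd68 made up most, and it rose with hypoxia by 0.60 for wild type (log2, edgeR adjusted p = 0.011) and by 0.58 in the ΔN-VEGF line (adjusted p = 0.0097). The 3 endothelial markers summed to 1.79 to 4.13 CPM in wild type normoxia and 5.84 to 7.77 CPM in wild type hypoxia, and to 1.77 to 4.03 and 20 to 25 CPM in the ΔN-VEGF groups. Cdh5 rose with hypoxia by 1.47 for wild type (adjusted p = 0.021) and by 3.26 in the ΔN-VEGF line (adjusted p = 0.00012). Pecam1 rose in the ΔN-VEGF line (1.17, adjusted p = 0.0068) and was at 0.34 in wild type cells (adjusted p = 0.38), and Kdr averaged 0.0019 CPM and was not tested. The part of these marker lists in the member results was not tested. Gene-level counts of Vegfa cannot show the N-VEGF deletion. As a check of the hypoxic treatment, 7 of 7 tested target genes were higher in hypoxia in both lines, led in wild type cells by Ankrd37 (log2 fold change 5.42), Bnip3 (4.45), Slc2a1 (3.70) and Adm (3.19). Vegfa rose more in ΔN-VEGF cells (interaction 1.57, edgeR adjusted p = 0.028).

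The question of the first comparison was how 16 h of hypoxia changed the pyruvate dehydrogenase step in each line. The mRNAs of 2 kinases rose in both lines, and those of both phosphatases and both carrier subunits fell. In wild type cells 2 of 10 members were higher (Pdk1 and Pdk3) and 4 were lower (Pdp1, Pdp2, Mpc1 and Mpc2), where 18.2% of all tested genes were called higher and 18.3% lower (edgeR quasi-likelihood test, Benjamini-Hochberg adjusted p below 0.05). In ΔN-VEGF cells 2 were higher (Pdk1 and Pdk3) and 5 were lower (the same 4 and Pdhb), against 26.9% higher and 26.4% lower of all genes. The median log2 fold change of the members was -0.42 in wild type cells and -0.07 in the ΔN-VEGF line, and that of all tested genes was -0.07 and -0.01. No library of hypoxia overlapped those of normoxia for 7 of 10 members in wild type cells, compared with 45.0% of all genes, and for 10 of 10 in the ΔN-VEGF line, compared with 70.5%.

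**Figure D1:**
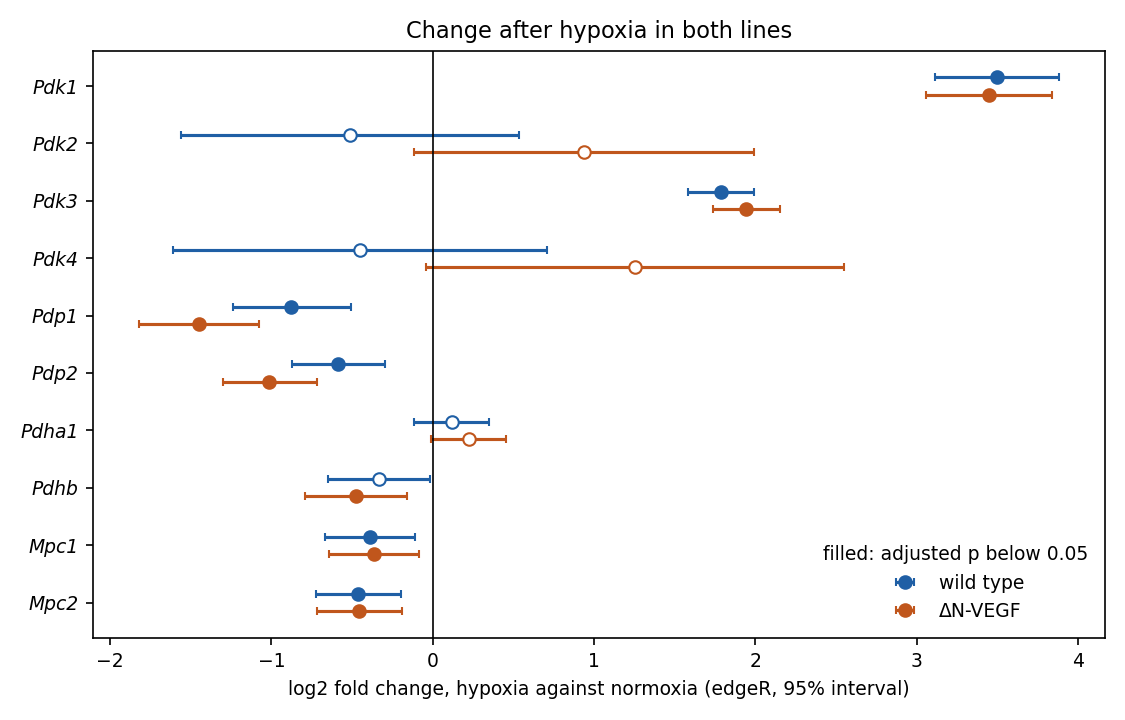
Log2 fold change of hypoxia against normoxia (x axis) for the 10 members (y axis) in wild type cells (blue) and ΔN-VEGF cells (orange), from edgeR with 3 libraries per group. Bars are 95% intervals, and filled points passed the adjusted threshold. Pdk1 lay at 3.50 and 3.45 and Pdk3 at 1.79 and 1.94, to the right of every other member, and the intervals of Pdp1 and Pdp2 lay below 0 in both lines.

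The promoters of the 4 kinases are shown because 2 of these genes rose with hypoxia in both lines and 2 did not pass the test. Each sequence is the 250 bases before the RefSeq transcription start, on the gene's own strand (RefSeq, build GRCm38.p6). Capitals mark ACGTG or GCGTG, the core letters of the HIF response element, read on either strand, so that CACGT and CACGC also count and the palindrome CACGTG holds 2 overlapping cores.
Pdk1, chr2:71872974-71873223, plus strand: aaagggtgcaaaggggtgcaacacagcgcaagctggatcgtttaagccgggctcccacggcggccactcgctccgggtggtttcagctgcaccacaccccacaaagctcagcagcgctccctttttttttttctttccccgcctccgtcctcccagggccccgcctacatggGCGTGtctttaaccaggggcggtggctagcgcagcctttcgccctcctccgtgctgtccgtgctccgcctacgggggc
Pdk3, chrX:93832151-93832400, minus strand: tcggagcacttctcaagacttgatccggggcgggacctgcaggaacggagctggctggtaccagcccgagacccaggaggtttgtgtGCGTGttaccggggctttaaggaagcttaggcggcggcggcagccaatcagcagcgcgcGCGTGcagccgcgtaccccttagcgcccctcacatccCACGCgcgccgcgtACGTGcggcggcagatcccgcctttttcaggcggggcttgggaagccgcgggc
Pdk2, chr11:95041372-95041621, minus strand: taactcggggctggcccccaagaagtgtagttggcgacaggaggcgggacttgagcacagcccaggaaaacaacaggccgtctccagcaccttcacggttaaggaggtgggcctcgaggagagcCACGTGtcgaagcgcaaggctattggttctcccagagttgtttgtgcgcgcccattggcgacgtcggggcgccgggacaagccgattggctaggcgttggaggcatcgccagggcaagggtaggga
Pdk4, chr6:5496279-5496528, minus strand: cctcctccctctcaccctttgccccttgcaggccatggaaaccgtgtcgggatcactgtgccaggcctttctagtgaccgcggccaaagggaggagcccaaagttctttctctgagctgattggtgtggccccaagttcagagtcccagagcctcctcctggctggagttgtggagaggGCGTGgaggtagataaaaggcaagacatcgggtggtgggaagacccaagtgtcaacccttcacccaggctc
Pdk1 held 1 core, whose first base was 78 bases before the start, and Pdk3 held 4, with first bases 163, 104, 67 and 53 bases before it. In Pdk2 the palindrome gave cores at 126 and 125 bases, and Pdk4 held 1 core at 71 bases. All 9 members with a promoter sequence held at least 1 core of either kind, as did 38.6% of 27025 promoters of the same length, and 4 of the 9 held ACGTG (Pdk2, Pdk3, Pdp2 and Pdhb) compared with 16.5% of all. The members' windows were richer in G and C (median 62.4%, range 58.8 to 73.6%) than the median window (52%), and no test was made. A core was present in the kinases that rose and in those that did not pass the test. Pdp1 was not matched.

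Pdk1, the kinase best known as a hypoxia target, stood at 53.2, 43.9 and 54.5 CPM in the 3 wild type normoxia libraries and at 582, 550 and 580 CPM in wild type hypoxia. The ΔN-VEGF line had it at 63.2, 41.1 and 67.8 CPM in normoxia and 622, 615 and 644 CPM in hypoxia. Every hypoxia library was thus far above every normoxia library, and the lines overlapped in normoxia. Pdk1 rose 11.3-fold in wild type cells (log2 fold change 3.50 ± 0.18 SE, edgeR adjusted p = 1.7e-07) and 10.9-fold in the ΔN-VEGF line (3.45 ± 0.18, adjusted p = 8.2e-08). The difference of these responses, the interaction of line and oxygen, was -0.05 on the log2 scale with a 95% interval of -0.55 to 0.45. Differences within this interval cannot be told from 0 in this fit.

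Pdk3, a kinase with low sensitivity to pyruvate, was the other kinase that rose. Its level was 36.1, 39.4 and 37.9 CPM in wild type normoxia and 133, 126 and 133 CPM in wild type hypoxia. ΔN-VEGF libraries gave 47.7, 39.6 and 47.7 CPM in normoxia and 170, 177 and 172 CPM in hypoxia, above each wild type library of the same condition. The rise was 3.45-fold in wild type cells (log2 1.79 ± 0.09, adjusted p = 2e-07) and 3.84-fold in the ΔN-VEGF line (1.94 ± 0.09, adjusted p = 5.1e-08). The 2 responses differed by 0.16 on the log2 scale (95% interval -0.12 to 0.43).

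Pdk2 and Pdk4 did not pass the test in either line when all 12 libraries were used, and both were low in the wild type normoxia library numbered 2. Pdk2 was measured at 35.3, 5.41 and 31.1 CPM in wild type normoxia and at 15.5, 18.7 and 16.2 CPM in wild type hypoxia. For ΔN-VEGF cells Pdk2 was at 14.9, 10.8 and 13.7 CPM in normoxia and at 26.9, 23.8 and 24.7 CPM in hypoxia. The hypoxic libraries were above the normoxic ones in the ΔN-VEGF line, whereas in wild type cells they lay between replicate 2 and the other normoxia libraries. The log2 fold change of Pdk2 was -0.51 in wild type cells (95% interval -1.56 to 0.53, adjusted p = 0.43) and 0.94 in the ΔN-VEGF line (-0.12 to 1.99, adjusted p = 0.12).

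Pdk4 was the kinase with the lowest level. It was at 5, 0.65 and 5.07 CPM in wild type normoxia and at 3.06, 2.29 and 2.50 CPM in wild type hypoxia. The ΔN-VEGF libraries gave 0.668, 0.687 and 0.49 CPM in normoxia, from 20 to 31 counts each, and 1.44, 1.32 and 1.66 CPM in hypoxia, from 41 to 54 counts. As for Pdk2, the values of ΔN-VEGF cells were separated by oxygen and those of wild type cells were not. The log2 fold change of Pdk4 was -0.45 in wild type cells (95% interval -1.61 to 0.71, adjusted p = 0.54) and 1.25 in the ΔN-VEGF line (-0.04 to 2.55, adjusted p = 0.095).

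Without the wild type normoxia library numbered 2, both genes passed the test in wild type cells. Pdk2 then fell by 0.98 (log2, adjusted p = 3.2e-05) and Pdk4 fell by 0.93 (adjusted p = 0.00036). With that library left out, 9 of 10 members were called in wild type cells, where 54.0% of all genes were, and 10 of 10 in the ΔN-VEGF line, where 67.1% were. The fit without this library tested 15145 genes in place of 14724, and it also moved calls between groups that do not hold the library. In this model the 4 groups share 1 estimate of the spread of a gene. For hypoxia in the ΔN-VEGF line, Pdk2 went from 0.94 (SE 0.48) to 0.93 (SE 0.12). Pdk4 went there from 1.25 (SE 0.59) to 1.24 (SE 0.20). The reason was not tested. When only the 6 ΔN-VEGF libraries were fitted, 10 of 10 members and 67.6% of all genes were called, and Pdk2 was higher in hypoxia by 0.91 (adjusted p = 0.00054) and Pdk4 by 1.23 (adjusted p = 0.0011).

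**Figure D2:**
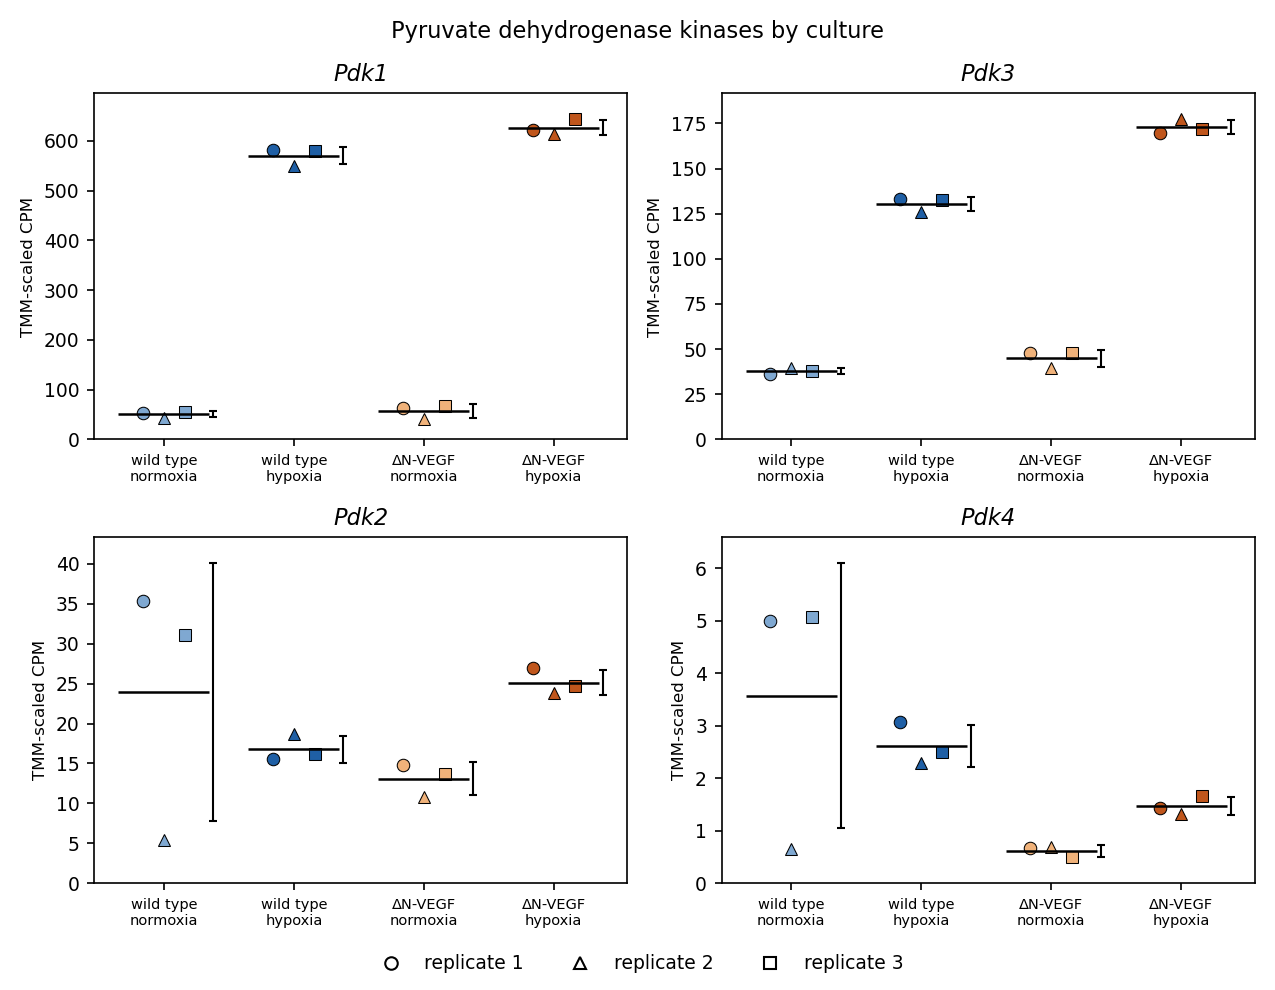
TMM-scaled CPM (y axis, from 0) of the 4 kinases in the 4 groups (x axis). Symbols are libraries by replicate number, horizontal lines are means and the bar beside each group is the SD (n = 3). Pdk1 and Pdk3 are separated by oxygen in both lines, while the triangle of wild type normoxia, replicate 2, lies at 5.41 CPM for Pdk2 and 0.65 CPM for Pdk4, away from the other libraries of its group.

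To compare the kinases with each other, CPM was divided by the length of the merged exons in kilobases. In wild type normoxia the order was Pdk3 (14.8 ± 0.64 SD CPM per kb), Pdk2 (7.57 ± 5.12), Pdk1 (6.5 ± 0.74) and Pdk4 (1.02 ± 0.72), with Pdk2 and Pdk1 closer together than their spread. Hypoxia put Pdk1 first in wild type cells, at 73.3 ± 2.3 CPM per kb, before Pdk3 at 51 ± 1.54, Pdk2 at 5.31 ± 0.54 and Pdk4 at 0.75 ± 0.11. ΔN-VEGF cells had the order Pdk3 (17.6 ± 1.81), Pdk1 (7.38 ± 1.84), Pdk2 (4.14 ± 0.67) and Pdk4 (0.18 ± 0.03) in normoxia. In hypoxia their order was Pdk1 (80.6 ± 1.94), Pdk3 (67.5 ± 1.53), Pdk2 (7.95 ± 0.50) and Pdk4 (0.42 ± 0.05). Merged exons include all annotated ends, so genes with long, rarely used ends, such as Pdk1 at 7779 bp, may be understated against Pdk3 at 2561 bp. Without division by length Pdk1 was above Pdk3 in normoxia too. Mean CPM was 50.5 and 37.8 in wild type cells, and 57.4 and 45 in the ΔN-VEGF line. The change of first place thus held only per kb.

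As a share of the summed kinase level per kb, Pdk1 went from 22.1% ± 2.23 (SD, n = 3) to 56.2% ± 0.29 in wild type, and it went from 24.9% ± 2.93 to 51.5% ± 0.9 in the ΔN-VEGF line. Without division by length the share of Pdk1 was 44.2% and 79.2% in wild type normoxia and hypoxia, and 49% and 75.8% in the ΔN-VEGF groups. That of Pdk3 was then 33.8% and 18.1% in wild type cells, and 39.2% and 20.9% in the ΔN-VEGF line. Per kb, Pdk3 made up 51.3% ± 13.7 and 39.1% ± 0.17 in wild type cells, and 60.3% ± 2.86 and 43.1% ± 1.02 in the ΔN-VEGF line. The share of Pdk2 was 23.5% ± 14 in wild type normoxia and 4.08% ± 0.52 in hypoxia, and 14.2% ± 0.67 and 5.08% ± 0.35 in the ΔN-VEGF line. Shares of one total cannot move independently, and a smaller share of Pdk2 in ΔN-VEGF hypoxia went with a higher level of it.

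**Figure D3:**
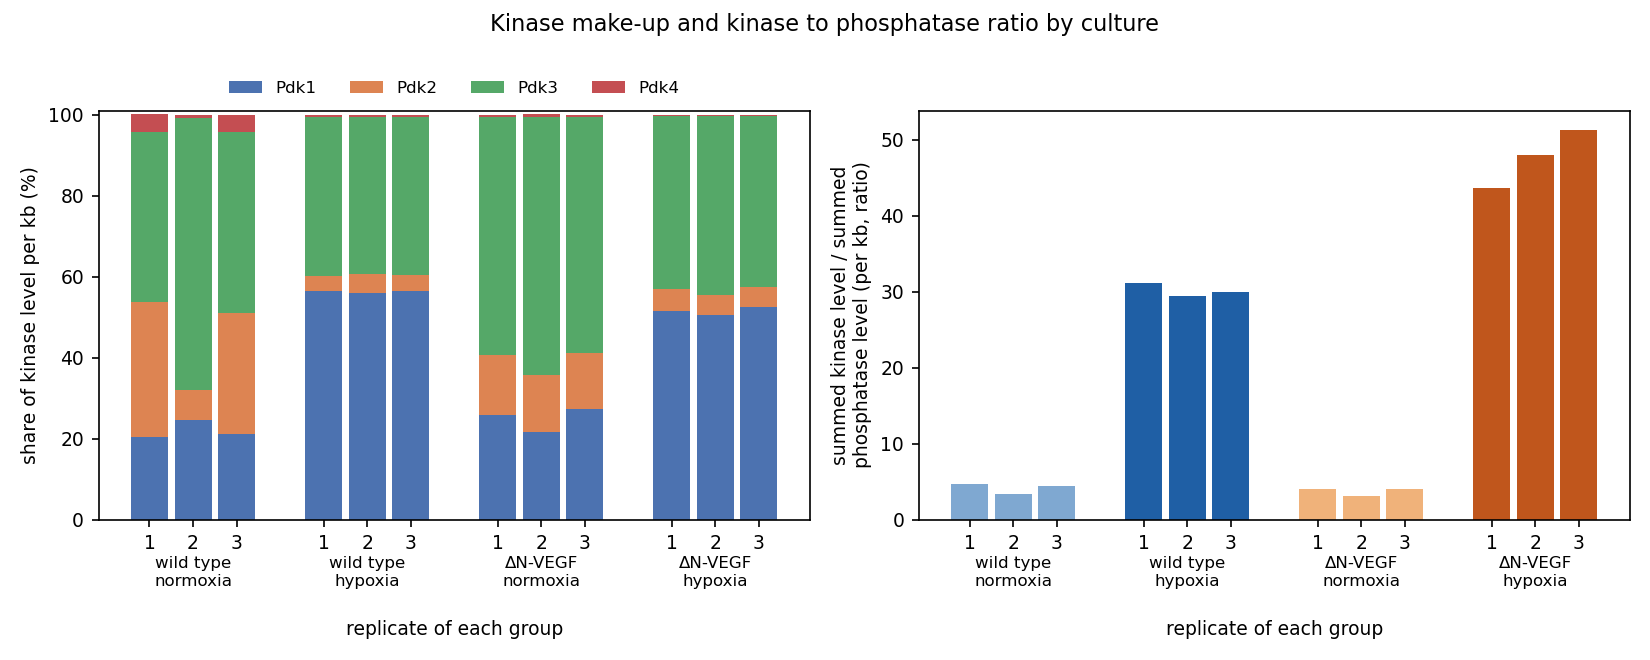
Left, percent of the summed kinase level per kb held by each kinase in each of the 12 libraries. Right, summed kinase level divided by summed phosphatase level, both in CPM per kb, as bars from 0. The ratio lay between 3.15 and 4.7 in the normoxia libraries, between 29.5 and 31.1 in wild type hypoxia and between 43.7 and 51.3 in ΔN-VEGF hypoxia.

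The phosphatases moved the opposite way to Pdk1 and Pdk3. Pdp1, the calcium-stimulated phosphatase, was at 19.5, 12.6 and 20 CPM in wild type normoxia and at 9.84, 9.49 and 9.07 CPM in wild type hypoxia. For the ΔN-VEGF line Pdp1 was at 21, 20.4 and 21.4 CPM in normoxia and at 8.8, 7.3 and 6.84 CPM in hypoxia. The groups did not overlap by oxygen in either line. The fall of Pdp1 was 1.84-fold in wild type cells (log2 -0.88 ± 0.17, adjusted p = 0.0019) and 2.73-fold in the ΔN-VEGF line (-1.45 ± 0.17, adjusted p = 3.7e-05).

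Pdp2, the phosphatase that does not depend on calcium, was at 16, 23.1 and 17.7 CPM in wild type normoxia and 11.9, 12.4 and 13.6 CPM in wild type hypoxia. Its ΔN-VEGF values were 18.1, 18.3 and 18.6 CPM in normoxia and 9.12, 9.3 and 8.89 CPM in hypoxia. Hypoxic ΔN-VEGF libraries were the lowest of all 12. Pdp2 fell 1.5-fold in wild type cells (log2 -0.59 ± 0.13, adjusted p = 0.0049) and 2.02-fold in the ΔN-VEGF line (-1.01 ± 0.13, adjusted p = 8.4e-05).

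Summed over their members and per kb, the kinases went from 29.8 ± 6.01 (SD, n = 3) to 130 ± 3.79 CPM per kb in wild type, and their sum was 29.2 ± 4.27 in ΔN-VEGF normoxia and 156 ± 1.53 in ΔN-VEGF hypoxia. Phosphatases summed to 7.18 ± 0.35 and 4.32 ± 0.07 CPM per kb in wild type normoxia and hypoxia, and to 7.86 ± 0.14 and 3.29 ± 0.24 in the ΔN-VEGF groups. The ratio of the sums was 4.14 ± 0.71 in wild type normoxia and 30.2 ± 0.82 in wild type hypoxia, and 3.72 ± 0.50 and 47.7 ± 3.81 in the ΔN-VEGF line. No hypoxia library overlapped a normoxia library in this ratio, and the hypoxic lines did not overlap each other. These sums are given without a test.

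Pdha1, the E1 alpha subunit that carries the phosphorylation sites, ranged from 93.9 to 131 CPM over the 12 libraries. Libraries of wild type normoxia were at 105, 131 and 106 CPM and those of hypoxia at 128, 117 and 124 CPM, which overlapped. ΔN-VEGF libraries were at 94.7, 110 and 93.9 CPM in normoxia and 115, 113 and 120 CPM in hypoxia. The log2 fold change of Pdha1 was 0.12 in wild type cells (95% interval -0.12 to 0.35, adjusted p = 0.41) and 0.22 in the ΔN-VEGF line (-0.01 to 0.46, adjusted p = 0.097), and both values were negative when libraries were scaled to total counts only. Without wild type normoxia library 2, Pdha1 passed as higher in hypoxia both for wild type (0.24, adjusted p = 0.026) and for the ΔN-VEGF line (0.22, adjusted p = 0.018).

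Pdhb, the E1 beta subunit, was at 52.1, 78.6 and 52.3 CPM in wild type normoxia and 48.9, 48.3 and 47.9 CPM in hypoxia. In ΔN-VEGF cells it was at 63, 70.8 and 65.5 CPM in normoxia and 45.6, 47.8 and 49.7 CPM in hypoxia. Pdhb fell in the ΔN-VEGF line by 0.48 on the log2 scale (SE 0.14, adjusted p = 0.016), with no overlap of the groups. That call was lost without the ΔN-VEGF hypoxia library 1 (adjusted p = 0.061) or the ΔN-VEGF normoxia library 2 (adjusted p = 0.053). In wild type cells the log2 fold change was -0.34 (adjusted p = 0.091), and without normoxia library 1 or 3 it passed (adjusted p = 0.043 and 0.044). Without normoxia library 2 it was -0.105 (adjusted p = 0.24). Scaled to total counts only, which moved the median of all genes to -0.30 in wild type hypoxia and -0.41 in the ΔN-VEGF line, Pdhb passed in wild type cells (-0.54, adjusted p = 0.0014) and was at -0.88 in the ΔN-VEGF line.

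Both carrier genes fell in both lines. Mpc1 was at 20.5, 28.5 and 24.4 CPM in wild type normoxia and 19.2, 18.6 and 18.2 CPM in hypoxia, and at 27.4, 30.3 and 26.6 CPM and 19.6, 23 and 22.9 CPM in the ΔN-VEGF line. Its log2 fold change was -0.39 ± 0.13 in wild type cells (adjusted p = 0.032) and -0.36 ± 0.13 in the ΔN-VEGF line (adjusted p = 0.03). Leaving out single libraries ended the Mpc1 call in wild type for each hypoxia library and for normoxia library 3 (adjusted p from 0.062 to 0.1). It was also lost without the filter on low counts (adjusted p = 0.075) and when only the 2 wild type groups were fitted (adjusted p = 0.088), and, among libraries of the other line, without ΔN-VEGF normoxia library 1 (adjusted p rounding to 0.05) or hypoxia library 3 (adjusted p = 0.051). The call in the ΔN-VEGF line was lost without any one of the hypoxia libraries or without normoxia library 1 or 2 (adjusted p from 0.05 to 0.12).

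Mpc2 was at 12.5, 13.2 and 14.4 CPM in wild type normoxia and 9.14, 10.3 and 9.76 CPM in hypoxia. ΔN-VEGF libraries gave 15.3, 14.8 and 12.8 CPM in normoxia and 11.2, 9.14 and 10.9 CPM in hypoxia. The log2 fold change of Mpc2 in the 2 lines was -0.46 ± 0.12 (adjusted p = 0.011) and -0.46 ± 0.12 (adjusted p = 0.0078), and the responses differed by 0.00 (95% interval -0.37 to 0.38). In wild type cells it did not pass without hypoxia library 1 (adjusted p = 0.053). Under total counts the carriers were at -0.61 (Mpc1) and -0.69 (Mpc2) in wild type cells and at -0.77 and -0.86 in the ΔN-VEGF line.

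**Figure D4:**
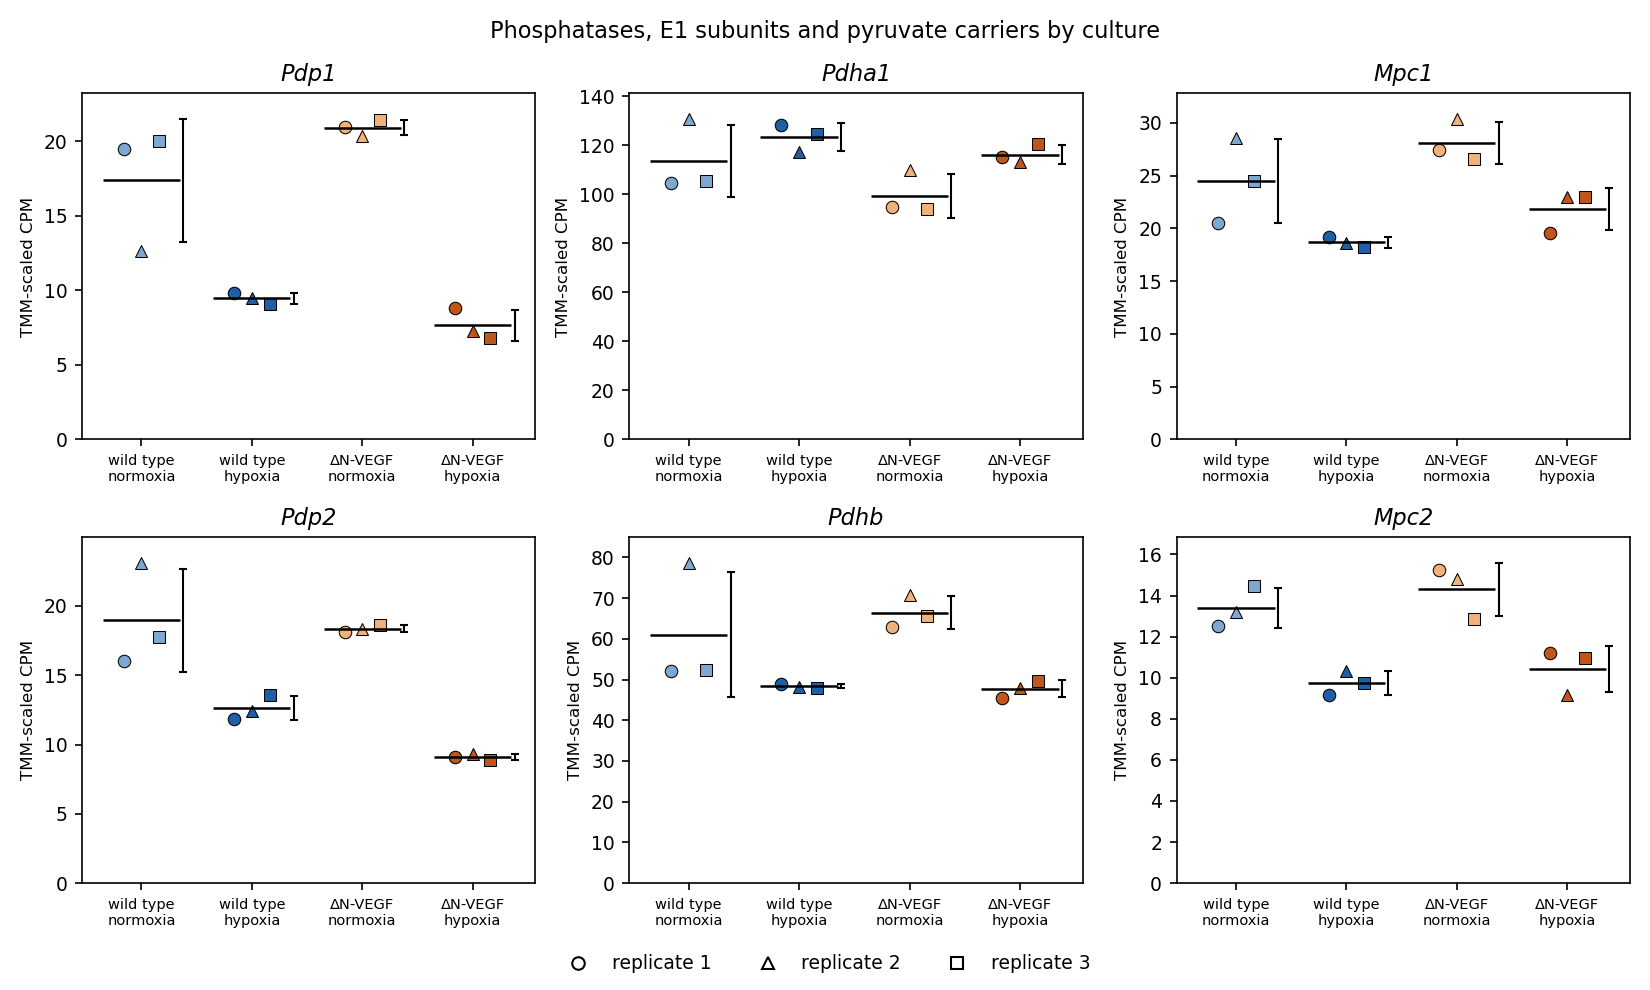
TMM-scaled CPM (y axis, from 0) of the phosphatases, E1 subunits and carriers in the 4 groups (x axis), with means, SD (n = 3) and replicate symbols. Hypoxia libraries lie below normoxia libraries for Pdp1, Pdp2, Pdhb, Mpc1 and Mpc2 in both lines, and those of Pdha1 span 113 to 128 CPM.

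Some members share exonic sequence with other genes. Exons of Pdha1 overlap Map3k15 on the opposite strand by 603 bp, and Map3k15 had 16 to 65 counts per library. Exons of Mpc1 overlap 4930506C21Rik on the opposite strand by 480 bp, a gene with 0 to 7 counts. The strand setting of the counting is not given in the sources used here, so reads of these stretches cannot be assigned with certainty. The pseudogene Mpc1-ps had at most 1 count. In the GRCm38 annotation Pdk1 lies at chr2:71873224-71903858 (plus strand), Pdk2 at chr11:95026258-95041354 (minus), Pdk3 at chrX:93764607-93832201 (minus) and Pdk4 at chr6:5483351-5496309 (minus). Pdp1 lies at chr4:11958184-11966452 (minus), Pdp2 at chr8:104591451-104599026 (plus), Pdha1 at chrX:160122209-160138413 (minus), Pdhb at chr14:8165996-8173025 (minus), Mpc1 at chr17:8282904-8297661 (plus) and Mpc2 at chr1:165460637-165481214 (plus).

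The second question was whether the lines differed at the same oxygen level. In normoxia 1 of 10 members was called, Pdk4, which was lower in the ΔN-VEGF line, where 1.39% of all genes were called higher and 2.97% lower. Pdk4 differed by -2.53 on the log2 scale (SE 0.58, adjusted p = 0.035), although the wild type library numbered 2 (0.65 CPM) lay within the ΔN-VEGF range of 0.49 to 0.687 CPM. Same-numbered normoxia libraries deviated together across lines, although no label pairs them. With a replicate block, which set the numbers as pairs in all 12 libraries, Pdk4 was at -2.35 (adjusted p = 0.055), so that 0 members passed. Pdk4 also missed the threshold when any 1 of 11 of the 12 libraries was left out, hypoxia libraries included (adjusted p from 0.059 to 0.14). Without the remaining one, wild type normoxia library 2, the difference was -3.01 (adjusted p = 3.6e-07).

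With that library left out, 5 of 10 members differed between the lines in normoxia, where 48.9% of all genes did. Pdk2 was then lower in the ΔN-VEGF line by 1.33 (log2 -1.33, adjusted p = 9.4e-06), and Pdk3, Pdhb and Mpc1 were higher by 0.29, 0.36 and 0.34 (adjusted p = 0.012, 0.0015 and 0.018). Over all 12 libraries the wild type and ΔN-VEGF normoxia groups did not overlap for 2 of 10 members (Pdk3 and Pdp1), compared with 16.3% of all genes. Pdk3 also passed without ΔN-VEGF normoxia library 2 (0.34, adjusted p = 0.044).

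In hypoxia 2 of 10 members differed between the lines, against 10.8% of all genes called higher and 9.36% lower. Pdk3 was higher in the ΔN-VEGF line by 0.41 (SE 0.09, adjusted p = 0.0097), a 1.32-fold difference, and missed the threshold when scaled to total counts only (0.19, adjusted p = 0.21) or tested without the filter on low counts (0.40, adjusted p rounding to 0.05). Pdp2 was 1.39-fold lower (log2 -0.47 ± 0.13, adjusted p = 0.029). The Pdp2 call was lost without any one of the 6 hypoxia libraries (adjusted p from 0.062 to 0.12). Hypoxic libraries of the lines did not overlap for 7 of 10 members, compared with 59.8% of all genes. When the 6 hypoxia libraries were fitted alone, 7 members passed, where 57.0% of all genes did: Pdk1, Pdk2, Pdk3 and Mpc1 were higher in the ΔN-VEGF line, by 0.13, 0.58, 0.40 and 0.22, and Pdk4, Pdp1 and Pdp2 were lower. With all groups but without wild type normoxia library 2, 5 of 10 members passed, where 42.4% of all genes did.

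The third question was whether the response to hypoxia itself differed between the lines. The interaction was called for 0 of 10 members (edgeR, all 12 libraries), where 2.21% of all genes were called with a positive and 1.15% with a negative interaction. DESeq2 likewise called 0. At an unadjusted p below 0.05 there were 2 members, against 21.0% of all genes, namely Pdp1 (-0.57, 95% interval -1.09 to -0.06, edgeR adjusted p = 0.19) and Pdp2 (-0.43, -0.83 to -0.02, edgeR adjusted p = 0.22), both with the larger fall in the ΔN-VEGF line. The largest estimates belonged to Pdk4 (1.70, 95% interval -0.04 to 3.44) and Pdk2 (1.45, -0.03 to 2.94), each with an edgeR adjusted p = 0.25.

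Leaving out wild type normoxia library 2 changed this comparison. The interaction then passed for 5 of 10 members, where it passed for 44.4% of all genes. Pdk2 (1.91, adjusted p = 4.2e-06) and Pdk4 (2.17, adjusted p = 3e-05) responded in opposite directions in the lines, down in wild type cells and up in the ΔN-VEGF line. The falls of Pdp1 (-0.41, adjusted p = 0.034) and Pdp2 (-0.61, adjusted p = 0.0016) were larger in the ΔN-VEGF line. So was that of Pdhb (-0.38, adjusted p = 0.0071), which did not pass as a fall in wild type cells in this fit (-0.105, edgeR adjusted p = 0.24). Without both normoxia libraries numbered 2 there were also 5 calls, against 52.8% of all genes. Under both of these fits the share of all genes called was close to that of the members.

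**Figure D5:**
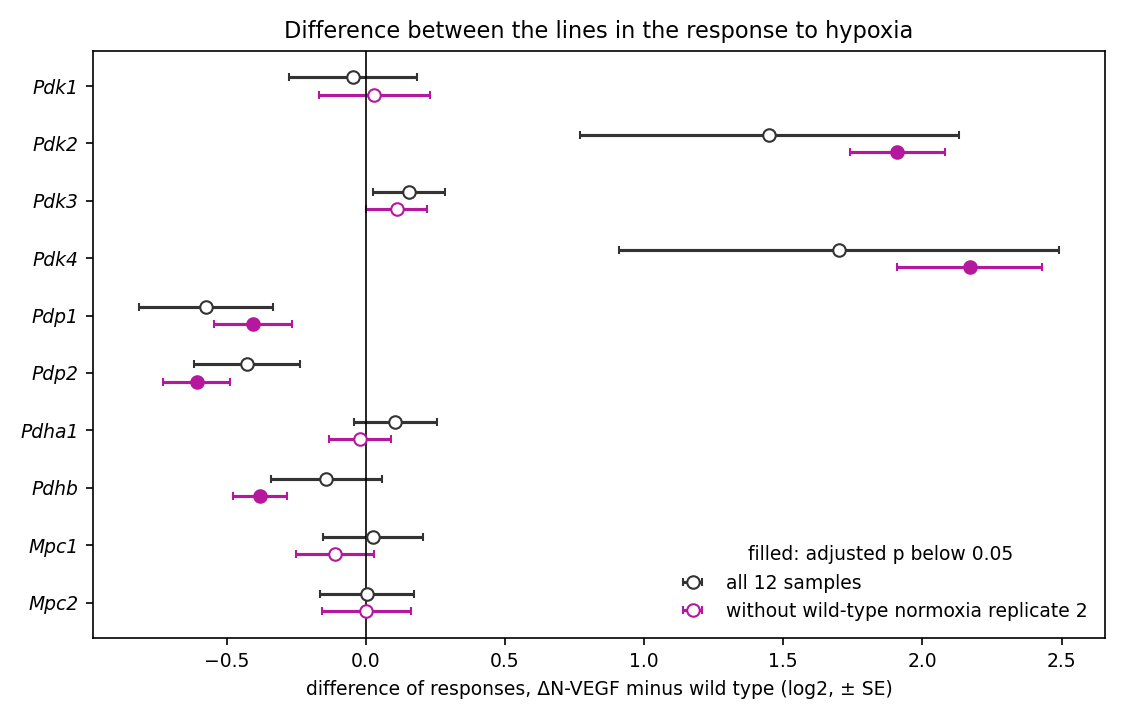
Difference of the hypoxia responses, ΔN-VEGF minus wild type (x axis, log2, ± SE), for the 10 members (y axis), fitted with all 12 libraries (black) and without wild type normoxia replicate 2 (magenta). Filled points passed the adjusted threshold: none of the black points is filled, and 5 magenta points are (Pdk2, Pdk4, Pdp1, Pdp2 and Pdhb).

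The remaining parts of the complex and the supply of its lipoate were described from gene lists. Of 4 tested genes among the other parts of the complex, 2 fell with hypoxia in wild type cells, Pdhx (-1.03, adjusted p = 0.0068), the protein that anchors E3, and Dlat (-0.77, adjusted p = 0.0032), the E2 acetyltransferase. In ΔN-VEGF cells 3 of 4 fell and 1 rose. The median change over the list was -0.49 in wild type cells and -0.70 in the ΔN-VEGF line. Lipoate is the swinging arm of E2, and of 9 genes that supply it 3 fell in wild type cells (Glrx5 -1.08, Bola3 -0.94 and Lias -0.55) and 8 in the ΔN-VEGF line, with medians of -0.39 and -0.75. Without wild type normoxia library 2 these genes kept their calls in wild type cells at smaller values, Pdhx -0.61, Dlat -0.50, Glrx5 -0.44, Bola3 -0.61 and Lias -0.43, and the lipoate median was -0.15. Over all genes 18.3% were lower in wild type cells and 26.4% in the ΔN-VEGF line, with 18.2% and 26.9% higher, and the counts of this and the following lists stand beside these shares.

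The list of dehydrogenases of related build, which use other 2-oxoacids, held 9 tested genes. Of these 5 fell in wild type cells (Dhtkd1 -1.42, Bckdhb -1.28, Ogdh -1.15 and Dbt -0.90 were the 4 with the largest change), while 5 fell and 1 rose in the ΔN-VEGF line. Genes of other pyruvate reactions moved both ways. Me2, a malic enzyme (3.35), Ldha, which makes lactate (2.49), and Pkm, which makes pyruvate (1.60), rose in wild type cells, and Ldhb fell (-0.57), so that 3 rose and 1 fell of 10 tested, compared with 5 and 1 in the ΔN-VEGF line. Among 5 tested genes of other acetyl-CoA routes, citrate synthase Cs (-0.72) and ATP citrate lyase Acly (-0.32) fell in wild type cells and 3 of 5 fell in the ΔN-VEGF line. With all 12 libraries Acly was the 1 gene with a called interaction (-0.63, adjusted p = 0.039) among 47 tested genes of these lists and the list of factors below.

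Of 10 tested factors known to act on Pdk genes, hypoxia raised 3 and lowered 3 for wild type, and raised 4 and lowered 3 in the ΔN-VEGF line. Foxo3, a forkhead factor that can induce Pdk4, rose by 1.65 in wild type cells and by 2.86 in the ΔN-VEGF line. Ppargc1a (-3.81) and Ppargc1b (-2.28), coactivators of mitochondrial genes, fell the most in wild type cells, and Rxra (-0.72), a partner of nuclear receptors, fell as well. These list counts are descriptions. Without wild type normoxia library 2 the 6 lists had 28 of 48 tested genes called for hypoxia in wild type cells, compared with 22 of 47, and 38 in the ΔN-VEGF line, compared with 34, where 54.0% and 67.1% of all genes were called. Of the factors, 6 in place of 3 were then lower in wild type cells. The interaction was then called for 29 of 48 genes of the lists, where it was called for 44.4% of all genes.

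Over the 12 libraries and among 8522 genes with a mean of at least 10 CPM, the genes whose log2 profile was most like that of Pdk1 were Arhgap29, Adm, Gys1, Appl2 and Pgm2. Their root mean square difference from the centred Pdk1 profile was 0.15, 0.2, 0.27, 0.29 and 0.29 on the log2 scale, where Pdk1 itself spanned 3.97. For Pdp1, the member with the smallest interaction p, they were Mgat5, Bcr, Micall2, Vangl2 and Adgrl1, at 0.15, 0.16, 0.17, 0.17 and 0.18, where Pdp1 spanned 1.64.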

How the data were processed

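RNA was prepared with TruSeq RNA v2 kits and sequenced as single reads. The authors trimmed reads with Trim Galore, aligned them to GRCm38.p6 with TopHat2 2.1.0 and Bowtie2 2.2.6 and counted genes with HTSeq 0.6.1, and the deposited table holds raw counts. Here genes were kept by filterByExpr, scaled by TMM and tested with edgeR 4.0.16 (R 4.3.3) in 1 quasi-likelihood model of 4 group means over 12 libraries, with p-values adjusted over 14724 genes. SE is that of the log2 fold change. CPM per kb used merged exons of GENCODE M21, which matched 10 of 10 member positions. DESeq2 1.42.0, other scalings, filters, fewer libraries and a replicate block were alternatives. On simulated data edgeR recovered 86% of genes changed 2-fold by hypoxia in wild type cells and 58% of such interactions. The simulation gave every gene the same spread and held no library that stood apart, so these shares need not hold for the real libraries. Same-numbered normoxia libraries deviated together across lines (r = 0.38, 0.5 and 0.36), so the number was taken to pair them, a pairing read from the data and not the labels. These values are not independent, being deviations from group means, and in both groups the library numbered 2 was the one that stood apart. Named genes are the members and, per list and comparison, up to 4 genes with the largest change that passed in wild type hypoxia or the interaction, plus likeness to Pdk1 and Pdp1. Of the lists, Ca9 and Mpc1l were not analysed here, and 1 list is not reported here. Members and lists were chosen with earlier results of these data known.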

Additional observations from a re-analysis of the deposited data

How the results depend on the processing

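Of 16 member values that passed the threshold, 9 passed in the same direction under every refit run for them, the 2-fold minimum not counted, and 0 reversed. Of 224 refits of these values 30 lost the call, where single libraries were left out only from the compared groups. Leaving out libraries of the other groups ended further calls. Over all 12 libraries left out in turn, Pdk4 between lines in normoxia lost its call in 11 fits and Mpc1 in wild type hypoxia in 6. Pdk1, Pdk3, Pdp1 and Pdp2 passed for hypoxia in both lines in each of these refits, while with a 2-fold minimum Pdp1 and Pdp2 missed in wild type cells. Without 1 library at a time, the number of members called ranged from 4 to 9 in wild type hypoxia, 5 to 10 in ΔN-VEGF hypoxia, 0 to 5 between lines in normoxia, 1 to 5 in hypoxia and 0 to 5 for the interaction, each highest without wild type normoxia library 2. The share of all genes called moved with these counts, from 26.8 to 54.0%, 42.9 to 67.1%, 1.10 to 48.9%, 10.1 to 42.4% and 0.493 to 44.4%, each highest in the same fit. Without both normoxia libraries numbered 2, chosen as a check after that library was seen to stand apart, 6, 7 and 5 members were called in the last 3 comparisons, where 53.6%, 55.8% and 52.8% of all genes were. With a 2-fold minimum the counts were 2 and 4 for hypoxia in wild type and ΔN-VEGF cells and 0 between lines in hypoxia, against 15.7%, 27.2% and 6.81% of all genes. Fits of the compared groups alone called 0 in normoxia (0.108% of all genes) and 7 in hypoxia (57.0%), no filter on low counts called 0 in hypoxia (7.87%), and total counts called 1 interaction (Pdp2, -0.62, adjusted p = 0.037), against 6.13% of all genes. The replicate block called 0 in normoxia (4.37% of all genes) and changed no other call. Outside normoxia the shared numbers had mean correlations of 0.01 to 0.07, and no pairing was read from them. The block nonetheless set the same numbers as pairs in all 12 libraries, hypoxia included. The cause of these changes was not tested.

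Total counts moved the median of all genes in wild type hypoxia from -0.07 to -0.30, and in ΔN-VEGF cells from -0.01 to -0.41, with 28.2% and 25.6% of calls higher, compared with 49.8% and 50.5% under TMM. Between lines in hypoxia the median went to -0.23 and 17.1% of calls were higher, compared with 53.5%, and for the interaction to -0.15 and 16.3%, compared with 65.9%. Values that reversed had not passed the test. Under total counts Pdha1 was at -0.10 and -0.18 in hypoxia, Pdk1 at -0.084 and Mpc2 at -0.12 between lines in hypoxia, and the interactions of Pdk3, Pdha1, Mpc1 and Mpc2 at -0.026, -0.078, -0.16 and -0.17. Without the filter Pdp2 was at 0.033 between lines in normoxia, and the interactions of Mpc1 and Mpc2 at -0.056 and -0.079. Without both normoxia libraries numbered 2 Pdp2 was at 0.13 in normoxia and the Mpc1 interaction at -0.050. Without 1 library, values that crossed 0 ranged from -0.15 to 0.13 for Pdp2 in normoxia, from -0.051 to 0.012 for Pdhb in hypoxia, and among interactions from -0.25 to 0.079 for Pdk1, -0.021 to 0.18 for Pdha1, -0.11 to 0.14 for Mpc1 and -0.080 to 0.080 for Mpc2. Small differences of the genes with the lowest counts, such as Pdk4 with 20 counts in one library, may be limited by depth, which was not tested.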
